A study of Mus musculus with 12 samples.

Results

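The comparison of cells given 25-hydroxyvitamin D (25(OH)D) for 24 h with untreated cells is described here across all genes. It uses 6 of the 12 libraries of the study, 3 in each group, taken by their labels. The cells were MC3T3-E1, a wild-type mouse pre-osteoblast line from calvarial bone. Both groups were kept for 28 days in osteogenic medium with serum. It held 50 µg/ml ascorbic acid, 10 mM beta-glycerophosphate (BGP), which supplies phosphate, and the synthetic glucocorticoid dexamethasone at 0.1 µM, so the control cells had these agents too. The treated group received 25(OH)D from day 27 at a labelled dose of 100 µM. The unit of that dose could not be checked, and no vehicle for the control is named in the labels. The labels do not say that replicates were separate cultures, and p-values here measure the spread between libraries, which may be technical.

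25(OH)D is the circulating form of vitamin D, which the enzyme encoded by Cyp27b1 turns into the active hormone calcitriol. The hormone binds the vitamin D receptor, which pairs with a retinoid X receptor on DNA and changes transcription of nearby genes. In osteoblasts the receptor is known to act on bone matrix proteins, on inhibitors and promoters of mineral formation, and on the enzyme encoded by Cyp24a1, which degrades vitamin D metabolites.

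Total counts were 4026050 to 4762357 in the control libraries and 3587039 to 4418903 in the 25(OH)D libraries. Values are given as CPM, the count of a gene relative to the total of its library, after scaling of library sizes, and since a 3′ method counts 1 tag for each transcript they were not divided by gene length. Each list of 3 values below runs from library 1 to library 3. Libraries of 1 group differed in the log2 ratio of ribosomal protein gene counts to counts of pseudogenes and predicted genes. It was −1.60, −1.70 and −0.51 in control and −0.39, −1.08 and −1.66 with 25(OH)D, so the groups overlapped. The 9 osteoblast markers, which include type I collagen, Runx2 and Sp7, were all detected in both groups. Of them 6 were called lower and 1 higher, and their summed level was 45943 to 76348 CPM in control and 7148 to 13671 CPM with 25(OH)D. The 6 osteocyte markers summed to 111 to 150.1 CPM and 52.0 to 66.1 CPM, with 3 of 5 tested called lower. The 5 smooth muscle markers summed to 342 to 410 CPM in control and 468 to 634 CPM with 25(OH)D, with none of the 4 tested called. The part of these shifts in the results below was not tested. All 8 hepatocyte markers had 0 counts in control and 6 of them, Alb among them, had 0 with 25(OH)D. None of the 6 macrophage markers tested was called, and the summed level of all 8 listed was 221 to 467 CPM in control and 194 to 362 CPM with 25(OH)D.

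A gene was called where its adjusted p (edgeR's quasi-likelihood test, Benjamini-Hochberg over 14394 genes) was under 0.05. In all 1250 genes were called, 8.68% of those tested. Of these 685 rose (4.76%) and 565 fell (3.93%), and 2821 genes had an unadjusted p under 0.05. The median log2 difference over all genes tested was −0.05. Groups did not overlap for 679 of the 685 genes that rose and for all 565 that fell. Among all genes tested, the groups were apart for 1593 with treated libraries higher and 1553 with treated libraries lower. For a called gene, groups that are apart therefore add little to the call. Among the genes that rose, 489 did so at least 2-fold, 200 at least 4-fold, 102 at least 8-fold and 46 at least 16-fold. For the genes that fell these numbers were 382, 140, 48 and 19. Of the 102 and 48 genes past 8-fold, 26 and 13 had 3 counts or fewer in their lower group, where the size of the fold is poorly fixed. Without 25(OH)D library 2 the count of called genes was 813. A fit on the 6 libraries alone called 763 genes, and one with the ribosomal protein ratio as a covariate called 2847.

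The called genes held a large share of the RNA that was counted. Genes that rose took 5.42 ± 0.285% of the scaled counts in control and 18.4 ± 0.901% with 25(OH)D (mean ± SD, n = 3). Genes that fell took 21.1 ± 0.893% in control and 6.10 ± 0.206% with 25(OH)D. Without Spp1 the first pair of means was 5.08% and 13.2%, and without Sparc the second pair was 13.9% and 4.84%. These shares describe genes chosen for their difference and are no test. Calls were more frequent among abundant genes, with 3.86, 6.17, 8.42 and 16.3% of genes called from the lowest to the highest of 4 equal classes of average level. In bulk libraries, fewer cells of a type and less RNA per cell cannot be told apart.

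**Figure D1:**
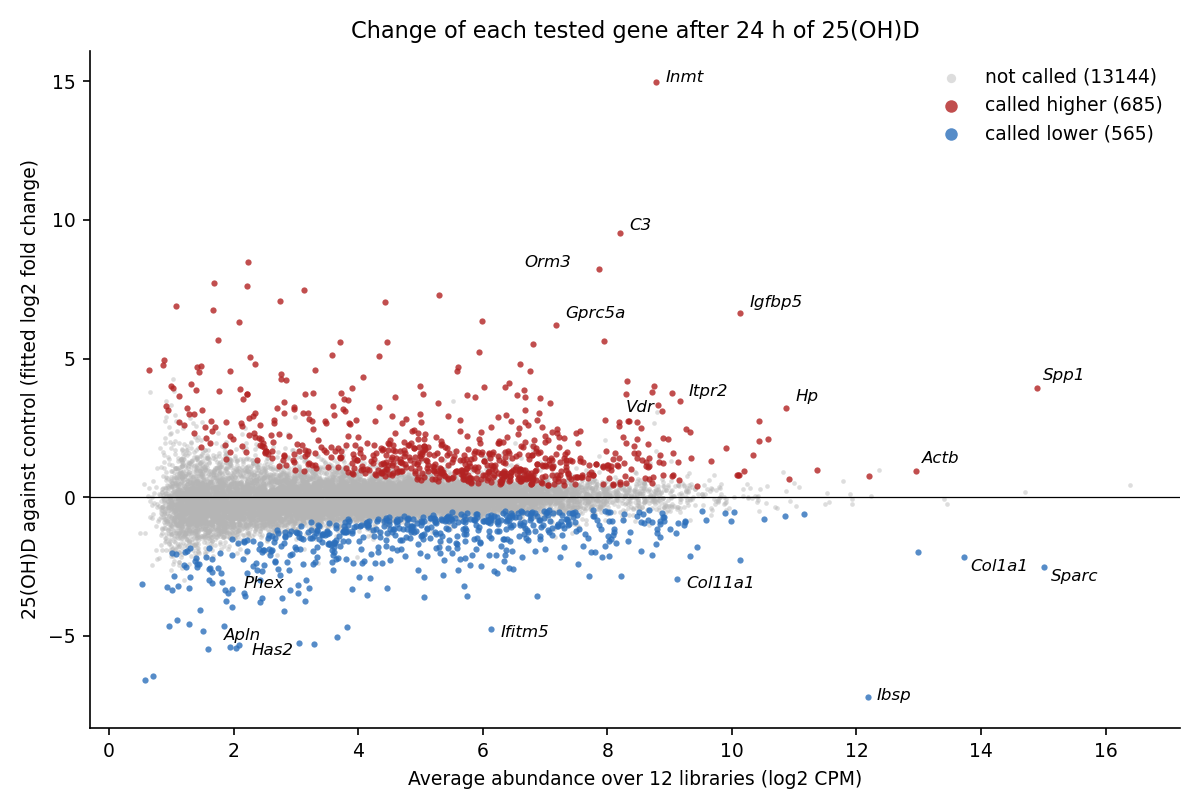
Each point is 1 of the 14394 genes tested, with its average log2 CPM over the 12 libraries of the model on the horizontal axis and its fitted log2 fold change with 25(OH)D on the vertical axis. Risen genes (685) are red and fallen genes (565) are blue, with Spp1, Sparc, Col1a1 and Ibsp at the abundant end, and the position of Inmt depends on the model because it had 0 counts in control.

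Lists of related genes are described next by how many members rose and fell. They were chosen with earlier results of these data known, and some share members, so their shares are no test. Behind a count, parentheses give its value where 1 library left out, or another fit, moves it by over 1.5 times. The covariate is the ribosomal protein ratio, the 6-library fit leaves out the other groups, and the block is the replicate number. Of the 86 counts of 43 lists, 53 moved up with the covariate, 27 moved down in the 6-library fit and 14 moved down with the block.

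In the list of vitamin D response genes, 7 rose and 4 fell (2 with no filter, with the block or in the 6-library fit) among 17 tested (64.7%, median log2 0.21). Spp1, the gene of the matrix phosphoprotein osteopontin, stood at 3144, 3857 and 3184 CPM in control and at 49005, 47559 and 58088 CPM with 25(OH)D. Vdr, the receptor gene itself, stood at 50.8, 70.6 and 61.9 CPM in control and at 381, 476 and 342 CPM with 25(OH)D. Thbd, which encodes the anticoagulant receptor thrombomodulin, stood at 8.87, 8.43 and 25.9 and at 283, 185 and 92.2 CPM. For these 3 genes every treated library lay far above every control library. Their log2 rises were 3.92 ± 0.15 (SE, adjusted p = 2.59e-08), 2.71 ± 0.17 (adjusted p = 9.34e-07) and 3.70 ± 0.58 (adjusted p = 0.00134). Cebpb, a transcription factor of the C/EBP family, rose from 405, 450.0 and 462 to 1565, 1619.5 and 1297 CPM, a log2 change of 1.77 ± 0.14 (adjusted p = 4.68e-06).

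Enpp1, which makes the mineralization inhibitor pyrophosphate outside the cell, rose from 4.56, 2.74 and 4.996 to 24.1, 15.2 and 16.6 CPM (log2 2.18 ± 0.28, adjusted p = 0.000310). Cyp24a1 had 0 counts in control and 26, 12 and 2 counts with 25(OH)D, at least 14.98-fold higher with the control group set to 3 counts in all. All 3 treated libraries held Cyp24a1 counts, although library 3 had few, and the call (adjusted p = 0.0200) was lost with a replicate block or with control library 1 or 2 or treated library 1 left out (adjusted p from 0.0540 to 0.0668). Cyp27b1 had 4 counts over the control group and 6 over the treated group, and Cyp2r1, the main 25-hydroxylase gene, had 23 and 11, too few for the test. Fgf23, the hormone that lowers blood phosphate, was counted 0, 1 and 0 times in control and 1, 3 and 3 times with 25(OH)D (exact permutation p = 0.1, 2-sided, the smallest that 3 against 3 libraries can give). Tnfsf11, the gene of the osteoclast factor RANKL, had 0 counts in both groups.

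Genes that fell in the same list included Tnfrsf11b, whose product osteoprotegerin blocks RANKL. It stood at 20.4, 25.3 and 41.6 CPM in control and at 7.22, 8.20 and 2.38 CPM with 25(OH)D, without overlap (log2 −2.28 ± 0.46, adjusted p = 0.00725). Bglap, the osteocalcin gene, went from 769.7, 577 and 1859 to 396, 345 and 191 CPM. The highest control value of Bglap was in library 3 and the lowest treated value in library 3, and the groups were apart (log2 −1.78 ± 0.43, adjusted p = 0.0193). The Bglap call was lost without the filter on low counts, with a replicate block, in a fit of the 6 libraries alone or with control library 3 or treated library 2 or 3 left out (adjusted p from 0.0596 to 0.174). Its neighbour Bglap2 had a log2 change of −1.67 ± 0.37, a call lost without the filter on low counts, with a replicate block or in a fit of the 6 libraries alone (adjusted p from 0.0508 to 0.123), and reads of these near-identical copies may be split between them.

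The genes that gained most CPM were led by Spp1, Actb and Hp. Only called genes whose groups did not overlap were ranked, so separate groups are a condition here and no result. Actb, which encodes beta-actin, stood at 5412, 6059 and 4380.4 CPM in control and 8953, 11056 and 10309.6 CPM with 25(OH)D (log2 0.94 ± 0.14, adjusted p = 0.00109). Igfbp5, a binding protein of insulin-like growth factors, stood at 10.6, 21.9 and 37.6 and at 3052, 2371 and 1573 CPM (log2 6.64 ± 0.50, adjusted p = 4.04e-06). Samhd1, a hydrolase of deoxynucleotides, stood at 328, 329.8 and 462 and at 2859, 2632 and 2013 CPM (log2 2.74 ± 0.18, adjusted p = 1.44e-06). All 3 were higher in each treated library than in any control library, and Igfbp5 varied most within its groups. Itpr2, a receptor that releases calcium from the endoplasmic reticulum, rose from 100.2, 94.0 and 94.0 to 1057, 1106 and 1014 CPM (log2 3.46 ± 0.12, adjusted p = 1.32e-08). Dgat1, which completes triglyceride synthesis, rose from 87.0, 63.4 and 60.7 to 882, 1024 and 945 CPM (log2 3.75 ± 0.17, adjusted p = 4.50e-08). Ctsb, the lysosomal protease cathepsin B, rose from 171, 207 and 203 to 1039, 1196 and 922 CPM (log2 2.44 ± 0.21, adjusted p = 1.05e-05). The treated libraries of these 3 were close to each other and stood clear of control. Pdlim2, a PDZ and LIM domain protein of the cytoskeleton and nucleus, rose by 1.53 ± 0.22. The nuclear long RNA Malat1 rose by 0.78 ± 0.18, a call lost with control library 1 or 2 or treated library 1 or 2 left out (adjusted p from 0.0507 to 0.0771).

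The genes that lost most CPM were led by the matrix genes Sparc, Col1a1 and Ibsp. Losses were ranked under the same condition that groups did not overlap. Sparc, the gene of the collagen-binding protein osteonectin, stood at 79121, 87932 and 48404 CPM in control and at 10554, 12859.6 and 14244 CPM with 25(OH)D (log2 −2.52 ± 0.24, adjusted p = 2.32e-05). S100a4, a calcium-binding protein, stood at 2146, 1791 and 2615 and at 477, 474 and 418 CPM (log2 −2.26 ± 0.16, adjusted p = 2.97e-06). Cpe, carboxypeptidase E, stood at 2011, 2008 and 2016 and at 1201, 1217 and 1073 CPM (log2 −0.79 ± 0.11, adjusted p = 0.000700). The lowest control library exceeded the highest treated library for each of them, and Sparc was lowest among controls in library 3. Ppic, a cyclophilin, fell by 1.27 ± 0.27, and the caveolar coat gene Cavin1 fell by 0.68 ± 0.14, a call lost with treated library 2 left out (adjusted p = 0.0667). Vim, the intermediate filament vimentin, fell by 0.86 ± 0.19, a call lost in a fit of the 6 libraries alone or with control library 1 or 2 or treated library 1 or 2 left out (adjusted p from 0.0537 to 0.0748).

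**Figure D2:**
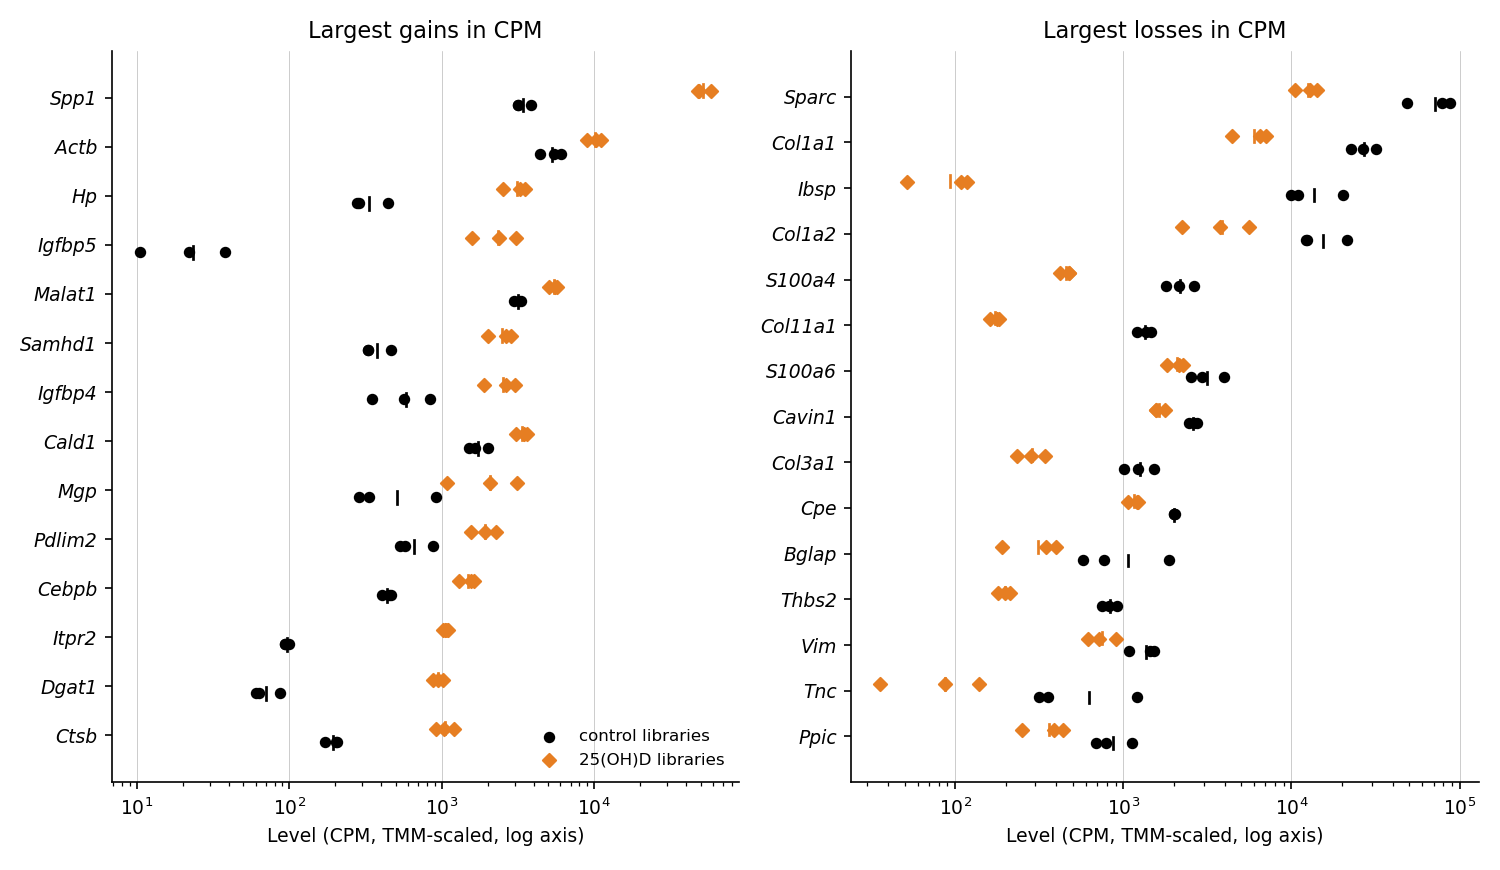
Levels in each control library (black circles) and each 25(OH)D library (orange diamonds) are plotted in TMM-scaled CPM on a log axis, with short lines for group means. The left panel has the 14 called genes with the largest gain in mean CPM besides Inmt, and the right panel has the 15 with the largest loss. Only genes whose 2 groups were apart could enter the panels, so that separation is no result here.

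Mineralization and phosphate genes moved in both directions. Of 23 tested, 7 rose (3 with control library 2 left out, 4 with treated library 1 or 2 left out and 4 with the block or in the 6-library fit) and 8 fell, which is 65.2% against 8.68% of all genes, with a median log2 of −0.56. Ibsp, the gene of bone sialoprotein, which binds hydroxyapatite, stood at 9902, 10939 and 20186 CPM in control and at 117, 109 and 52.0 CPM with 25(OH)D (log2 −7.20 ± 0.43, adjusted p = 6.18e-07). Ifitm5, a bone-restricted membrane protein, stood at 162, 208 and 188 and at 6.69, 8.92 and 5.02 CPM (log2 −4.74 ± 0.25, adjusted p = 1.81e-07). Smpd3, a sphingomyelinase needed for normal bone mineral, stood at 28.5, 49.5 and 34.7 and at 6.95, 7.47 and 7.40 CPM (log2 −2.37 ± 0.34, adjusted p = 0.000648). No treated library reached the lowest control library for any of these. Phex, the endopeptidase lost in X-linked hypophosphataemia, fell from 20.6, 15.8 and 21.6 to 1.60, 4.58 and 1.06 CPM (log2 −2.97 ± 0.48, adjusted p = 0.00143). Mepe, a phosphoglycoprotein of osteocytes, had 16, 25 and 22 counts in control and 0, 0 and 2 with 25(OH)D, a ratio of 28.03, with 95% counting limits of 7.44 and 237. Its call (adjusted p = 0.00967) was lost with treated library 2 left out (adjusted p = 0.0608).

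Members of that list that rose besides Spp1 act on pyrophosphate, phosphorylation or calcification. Fam20c, the kinase of secreted phosphoproteins such as osteopontin, stood at 79.6, 96.7 and 59.0 CPM in control and at 160.2, 180.1 and 222 CPM with 25(OH)D (log2 1.26 ± 0.19, adjusted p = 0.000850). Alpl, the alkaline phosphatase that degrades pyrophosphate, stood at 29.7, 22.6 and 23.3 and at 49.7, 48.7 and 46.0 CPM (log2 0.93 ± 0.21, adjusted p = 0.0138). Neither gene had overlapping groups, and the Alpl call was lost with control library 2 left out (adjusted p = 0.0561). Mgp, the calcification inhibitor matrix Gla protein, stood at 288, 331 and 917 and at 3112, 2059 and 1089 CPM, with the highest control library close to the lowest treated library (log2 2.03 ± 0.54). The Mgp call was lost without the filter on low counts, with a replicate block, in a fit of the 6 libraries alone or with control library 1 or 2 or treated library 1 or 2 left out (adjusted p from 0.0721 to 0.249). Ank, the pyrophosphate transporter, rose by 0.78 ± 0.21 and Enpp3, a relative of Enpp1, by 1.03 ± 0.27. The Ank call was lost with a replicate block, in a fit of the 6 libraries alone or with control library 1 or 2 or treated library 1 or 2 left out (adjusted p from 0.0771 to 0.166), and that of Enpp3 was lost with a replicate block, in a fit of the 6 libraries alone or with control library 2 or 3 or treated library 1, 2 or 3 left out (adjusted p from 0.0629 to 0.135). The osteocyte matrix gene Dmp1 had 5, 11 and 17 counts in control and 16, 15 and 5 counts with 25(OH)D and was not called (adjusted p = 0.812), and the Wnt inhibitor Sost had 10, 5 and 7 and 0, 5 and 2 counts (adjusted p = 0.367).

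Among 43 transcription factors of osteoblasts and mesenchyme, 7 rose (4 with control library 1 or treated library 1 or 2 left out and 11 with the covariate) and 6 fell (3 with control library 2 or 3 or treated library 1 or 2 left out, 3 in the 6-library fit and 15 with the covariate) (30.2%, median log2 −0.17). Runx2, the factor without which osteoblasts do not form, stood at 147, 188 and 189 CPM in control and at 93.1, 86.8 and 69.7 CPM with 25(OH)D (log2 −1.07 ± 0.16, adjusted p = 0.000767). Mef2c, a MADS-box factor that acts in bone and muscle, stood at 428, 497 and 319.7 and at 69.3, 83.7 and 79.5 CPM (log2 −2.42 ± 0.19, adjusted p = 5.37e-06). Dlx5, a homeobox factor upstream in the osteoblast programme, stood at 74.8, 108 and 106 and at 33.7, 32.3 and 26.4 CPM (log2 −1.65 ± 0.23, adjusted p = 0.000468). All 3 were lower in every treated library. Sp7, the osteoblast factor osterix, was at 49.1 ± 38.0 and 35.5 ± 26.2 CPM (mean ± SD, n = 3 per group) and was not called (adjusted p = 0.747). Osr1 and Foxc2, factors of early mesenchyme, rose. Osr1 stood at 13.7, 23.8 and 26.4 and at 109, 98.8 and 65.0 CPM (log2 2.09 ± 0.33, adjusted p = 0.00121). Foxc2 rose by 2.69 ± 0.41 from a low level, and Sox4, of the SOX family, by 1.36 ± 0.30, a call lost with control library 1 left out (adjusted p = 0.0548). The groups of Osr1 and Foxc2 did not overlap.

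Most collagen chains that were called fell. Of 29 tested, 1 rose (2 with control library 3 or treated library 3 left out and 2 with the covariate or by DESeq2) and 14 fell (51.7%, median log2 −1.14). Col1a1, a chain of the type I collagen that makes up most of the bone matrix, stood at 22486, 26789 and 31744 CPM in control and at 7046, 6505 and 4419 CPM with 25(OH)D (log2 −2.17 ± 0.20, adjusted p = 2.32e-05). Its partner chain Col1a2 stood at 12163, 12384 and 21420.5 and at 5599, 3747 and 2222 CPM (log2 −1.99 ± 0.45, adjusted p = 0.0142), a call lost without the filter on low counts or with treated library 2 or 3 left out (adjusted p from 0.0579 to 0.131). Col11a1, a chain that is built into fibrils and sets their width, stood at 1457, 1368 and 1207 and at 161, 181 and 177 CPM (log2 −2.96 ± 0.16, adjusted p = 1.98e-07). In these 3 chains every treated library lay below the controls, and Col1a2 varied most between libraries. Col3a1, a chain of fibrils in soft tissue and early bone, fell by 2.12 ± 0.22, Col11a2 by 2.61 ± 0.26 and the cartilage chain Col2a1 by 4.68 ± 0.55. The microfibril chain Col6a2 fell by 1.36 ± 0.19, Col5a1, which starts fibrils of type I collagen, by 1.79 ± 0.30 while Col8a2 fell by 2.45 ± 0.44. Col16a1, of the fibril-associated collagens, was the 1 chain that rose, from 59.9, 55.0 and 186 to 968, 695 and 329.9 CPM (log2 2.73 ± 0.52, adjusted p = 0.00500). The Col16a1 call was lost without the filter on low counts (adjusted p = 0.0684).

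Of 30 genes that process and crosslink collagen, 3 rose and 6 fell (18 with the covariate) (30%, median log2 −0.64). Loxl2, a lysyl oxidase that starts crosslinks, stood at 1.199, 1.05 and 0.238 CPM in control and at 7.49, 7.47 and 6.07 CPM with 25(OH)D (log2 3.03 ± 0.45, adjusted p = 0.000846). Bmp1, the protease that removes the carboxy-terminal propeptide, stood at 67.4, 70.0 and 92.1 and at 212, 177 and 143 CPM (log2 1.21 ± 0.20, adjusted p = 0.00172). Pcolce and Pcolce2 encode enhancers of that cleavage. Pcolce stood at 414, 457 and 421 and at 164, 180.3 and 161 CPM (log2 −1.35 ± 0.13, adjusted p = 3.22e-05), and Pcolce2 fell by 3.63 ± 0.45. So the protease was higher and both of its enhancers lower in every treated library. Plod1, a lysyl hydroxylase, rose by 0.95 ± 0.18, while the proline hydroxylase gene P3h1 fell by 1.46 ± 0.29 and the collagen chaperones Fkbp10 and Fkbp14 fell by 1.01 ± 0.15 and 1.58 ± 0.28.

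**Figure D3:**
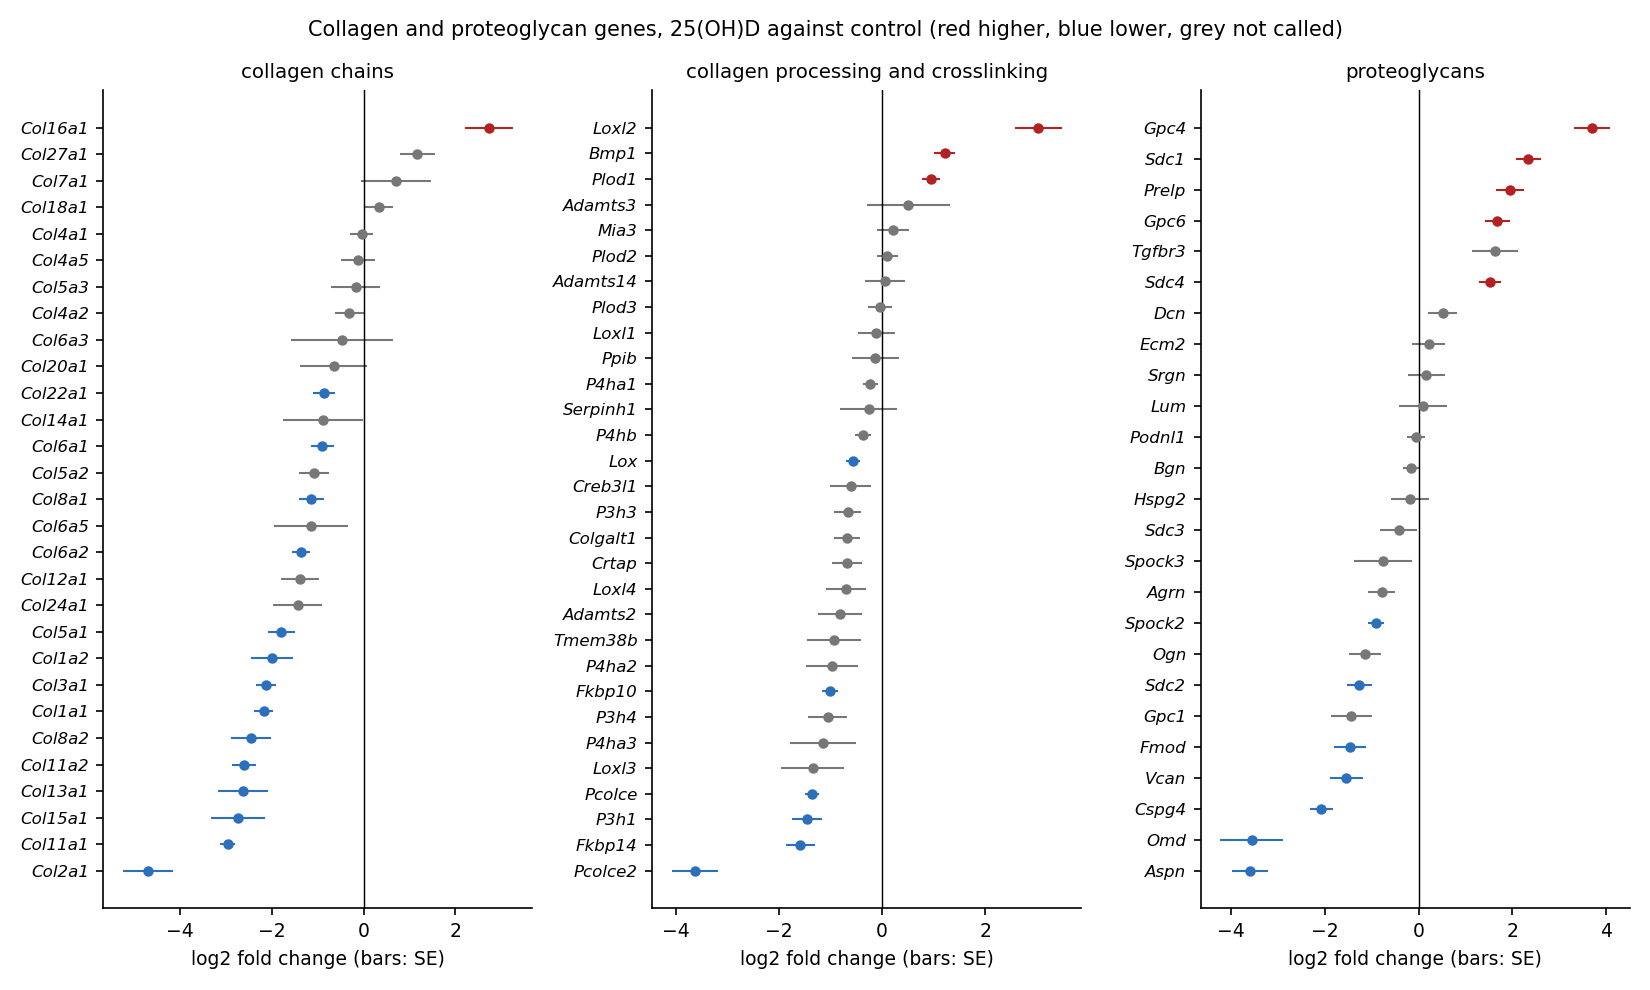
Fitted log2 fold change with 25(OH)D (points) and its SE (bars) for each tested collagen chain, collagen-processing gene and proteoglycan gene, in red where called higher, blue where called lower and grey where not called. The collagen panel has 14 blue genes and 1 red gene, and the other panels hold called genes on both sides of 0.

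Of 25 proteoglycan genes, 5 rose and 7 fell (48%, median log2 −0.18). Gpc4, a glypican anchored in the membrane, stood at 9.83, 5.06 and 8.80 CPM in control and at 130.0, 102 and 75.0 CPM with 25(OH)D (log2 3.70 ± 0.38, adjusted p = 5.35e-05). Sdc1, a transmembrane heparan sulfate carrier, stood at 32.4, 58.2 and 49.7 and at 259, 256 and 193 CPM (log2 2.34 ± 0.26, adjusted p = 9.74e-05). Aspn, asporin, a small leucine-rich protein that binds collagen, stood at 59.9, 70.0 and 107 and at 7.76, 6.03 and 5.81 CPM (log2 −3.59 ± 0.39, adjusted p = 7.21e-05). Gpc4 and Sdc1 were higher and Aspn lower in each treated library. Prelp, a leucine-rich protein of connective tissue, rose by 1.94 ± 0.30, Sdc4 by 1.52 ± 0.24 and Gpc6 by 1.68 ± 0.26, whereas Cspg4, a membrane chondroitin sulfate carrier, fell by 2.07 ± 0.24 and Sdc2 by 1.26 ± 0.27. Osteomodulin, the Omd product of mineralizing matrix, had a log2 change of −3.55 ± 0.67, a call lost without the filter on low counts (adjusted p = 0.0622).

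Matricellular and glycoprotein genes of the matrix counted 43 tested, of which 8 rose (5 with control library 1 or 2 or treated library 2 left out, 5 with the block and 15 with the covariate) and 13 fell (7 with treated library 2 left out and 8 with the block or in the 6-library fit) (48.8%, median log2 −0.39). Thbs2, thrombospondin 2, stood at 921, 824 and 744 CPM in control and at 198, 179 and 213 CPM with 25(OH)D (log2 −2.08 ± 0.13, adjusted p = 9.34e-07). Tnn, tenascin W, stood at 63.5, 54.0 and 110.4 and at 11.8, 11.8 and 7.40 CPM (log2 −2.87 ± 0.39, adjusted p = 0.000427). Npnt, the integrin ligand nephronectin, stood at 431, 492 and 323 and at 159, 158 and 155 CPM (log2 −1.40 ± 0.15, adjusted p = 7.21e-05). Each of these was lower in all treated libraries than in any control library. Ccn4, a Wnt-induced secreted protein, fell by 2.15 ± 0.33 and Tnc, tenascin C, by 2.84 ± 0.61, of which the Tnc call was lost without the filter on low counts (adjusted p = 0.106). Vwa1, a von Willebrand domain protein, rose from 0, 1.05 and 0.952 to 21.1, 25.8 and 27.5 CPM (log2 5.13 ± 0.51, adjusted p = 3.99e-05). Fbln2, fibulin 2, rose by 1.66 ± 0.21, Spon2, spondin 2, by 2.09 ± 0.27 and the fibrillin gene Fbn1 by 1.49 ± 0.30. Ccn2, a growth factor of connective tissue, stood at 0.480, 0 and 0.952 and at 179, 37.6 and 12.4 CPM, spread widely among treated libraries, and its call was lost without the filter on low counts (adjusted p = 0.0719).

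Among 30 metalloproteases and inhibitors, 2 rose (4 by DESeq2 or without ribosomal RNA entries and 5 with the covariate) and 4 fell (8 with the covariate) (20%, median log2 −0.20). Adam12, a membrane metalloprotease, fell by 1.69 ± 0.24 and the inhibitor Timp4 by 1.64 ± 0.29. Adamts18, a secreted relative, had 30, 36 and 48 counts in control and 0, 2 and 0 with 25(OH)D, a ratio of 50.7, with 95% counting limits of 13.7 and 424. Mmp8, a collagenase, rose by 1.45 ± 0.29. Hyaluronan genes had 15 members tested, of which 1 rose (2 with control library 3 left out) and 3 fell (26.7%, median log2 0.15). Has2, the main hyaluronan synthase of mesenchyme, stood at 26.4, 27.8 and 29.7 CPM in control and at 0.535, 0.241 and 1.32 CPM with 25(OH)D (log2 −5.29 ± 0.44, adjusted p = 8.29e-06). Cemip, which takes part in hyaluronan breakdown, stood at 2.16, 2.53 and 3.57 and at 19.8, 22.2 and 22.2 CPM (log2 2.95 ± 0.41, adjusted p = 0.000519). The synthase was near 0 and the breakdown gene higher in each treated library, while the receptor gene Cd44 and the link protein gene Hapln1 fell by 1.02 ± 0.18 and 2.88 ± 0.44. In the coagulation and serpin list 4 rose (7 with the covariate) and 1 fell (3 with the covariate) of 26 (19.2%, median log2 −0.10). F13a1, a subunit of the fibrin-crosslinking factor, rose by 1.90 ± 0.27, and the plasminogen activator gene Plat fell by 1.38 ± 0.21.

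Plasma protein genes included C3 and Orm3, with fitted rises of over 8 on the log2 scale. C3, the central complement component, is made mainly by liver, as are the orosomucoids of the Orm genes and haptoglobin of Hp, and C/EBP factors are known to act on such genes. The 250 bases before the RefSeq start sites of C3, Orm2 and Orm3 (GRCm38.p6, a different build from the mm39 of the counts) are shown because these genes rose and each window holds TTGCNNAA, a C/EBP-type motif, in capitals. Hp had no window in the promoter set and none is shown for Orm1, although both genes rose, so the 3 windows are a selection. A part of C/EBP factors in these rises was not tested. The motif was chosen after these values were seen, was searched on both strands, and lies 45 to 38, 120 to 113 and 121 to 114 bases before the start of C3, Orm2 and Orm3. The windows are at chr17:57228137-57228386, minus strand, chr4:63362199-63362448, plus strand and chr4:63355908-63356157, plus strand, and each sequence is written 5′ to 3′ along its gene.
C3: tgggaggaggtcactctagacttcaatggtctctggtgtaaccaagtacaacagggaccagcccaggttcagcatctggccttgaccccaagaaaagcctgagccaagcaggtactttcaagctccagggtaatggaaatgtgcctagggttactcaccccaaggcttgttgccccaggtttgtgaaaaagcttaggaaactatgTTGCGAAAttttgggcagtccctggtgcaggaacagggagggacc
Orm2: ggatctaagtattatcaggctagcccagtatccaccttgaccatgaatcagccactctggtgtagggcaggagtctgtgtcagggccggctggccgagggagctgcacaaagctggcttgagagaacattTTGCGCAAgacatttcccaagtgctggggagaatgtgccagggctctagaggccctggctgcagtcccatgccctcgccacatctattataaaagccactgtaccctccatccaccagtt
Orm3: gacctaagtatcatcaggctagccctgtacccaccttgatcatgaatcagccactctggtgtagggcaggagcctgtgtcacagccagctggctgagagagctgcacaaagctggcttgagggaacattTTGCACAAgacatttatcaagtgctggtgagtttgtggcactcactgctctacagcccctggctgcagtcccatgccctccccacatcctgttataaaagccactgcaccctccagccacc
The motif was in 10.8% of all 27025 promoter windows, in 12.1% of 470 genes that rose and were matched, in 10.5% of 418 that fell and in 8.72% of 8634 that were tested and not called. It was in 21.3% of 61 matched genes that rose at least 8-fold and in 10.3% of 29 that fell at least 8-fold. C3, Orm2 and Orm3, after whose values the motif was chosen, are among the 61 and hold it, so these shares are no test. The DR3 motif, the direct repeat that the vitamin D receptor and a retinoid X receptor bind as a pair, was searched on either strand. The search took only listed half-sites of 6 bases with a spacer of 3 bases, so other forms of the repeat were not counted. The DR3 motif was in 0.185% of all windows, in 1 of the 470, in 0 of the 418 and in 0.174% of the 8634. Among genes past 8-fold it was in 1 of the 61 (1.64%) and in 0 of the 29. With 1 match among the called genes, these shares cannot be compared. A match describes letters in the window and shows no binding.

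Of 13 acute-phase and plasma protein genes, 4 rose and 1 fell (38.5%, median log2 −0.03). Orm3 stood at 0.719, 1.26 and 2.85 CPM in control and at 509, 530.1 and 415 CPM with 25(OH)D (log2 8.21 ± 0.34, adjusted p = 3.60e-08). Orm2 stood at 2.40, 2.11 and 4.996 and at 121, 84.6 and 43.6 CPM and Orm1 at 8.87, 17.1 and 39.7 and at 294, 254 and 135 CPM (log2 4.71 ± 0.51, adjusted p = 7.20e-05, and 3.38 ± 0.54, adjusted p = 0.00151). Hp, which binds free haemoglobin, stood at 285, 442 and 277 and at 2534, 3253 and 3496 CPM (log2 3.21 ± 0.20, adjusted p = 6.31e-07). Every treated library exceeded every control library for all 4 genes, and levels of the Orm genes are uncertain because reads of close copies may be split. Cp, the copper-carrying ferroxidase ceruloplasmin, went the other way, from 685, 855 and 816 to 356, 375 and 320.4 CPM (log2 −1.16 ± 0.18, adjusted p = 0.00124). The liver markers Alb and Ttr had 0 counts in all 6 libraries.

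In the complement list 1 rose (2 with control library 1 left out and 3 with the covariate) and 3 fell among 16 (25%, median log2 −0.13). C3 stood at 1.199, 1.48 and 0.238 CPM in control and at 593, 851 and 806 CPM with 25(OH)D (log2 9.53 ± 0.49, adjusted p = 1.80e-07). Cd59a, which blocks the membrane attack complex, stood at 11.7, 13.9 and 26.9 and at 1.87, 3.37 and 0.528 CPM (log2 −3.15 ± 0.62, adjusted p = 0.00604). Masp1, a protease of the lectin pathway, stood at 218, 280.3 and 259 and at 112, 117 and 112 CPM (log2 −1.15 ± 0.13, adjusted p = 8.32e-05). Both fell without overlap of the groups.

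Chemokines, cytokines and their receptors had 38 members tested, of which 8 rose and 3 fell (6 with the covariate) (28.9%, median log2 −0.16). Il34, a ligand of the macrophage colony-stimulating factor receptor, stood at 11.3, 10.5 and 6.90 CPM in control and at 117, 162 and 174 CPM with 25(OH)D (log2 3.97 ± 0.22, adjusted p = 2.43e-07). Cxcl12, the chemokine that keeps blood stem cells in marrow, stood at 28.1, 30.8 and 50.7 and at 798, 723 and 489 CPM (log2 4.20 ± 0.31, adjusted p = 3.63e-06). Rarres2, the gene of chemerin, stood at 0.480, 1.48 and 0 and at 10.96, 18.1 and 21.1 CPM (log2 4.57 ± 0.58, adjusted p = 0.000246). The 3 ligand genes were higher in each treated library, and the chemerin receptors Ccrl2 and Cmklr1 also rose, by 5.59 ± 0.64 and 2.71 ± 0.57. Of the interleukin 6 receptor parts, Il6st rose by 1.40 ± 0.16 and Il6ra by 1.96 ± 0.34, while Il11ra1, which pairs with the Il6st product to bind interleukin 11, fell by 1.22 ± 0.20.

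**Figure D4:**
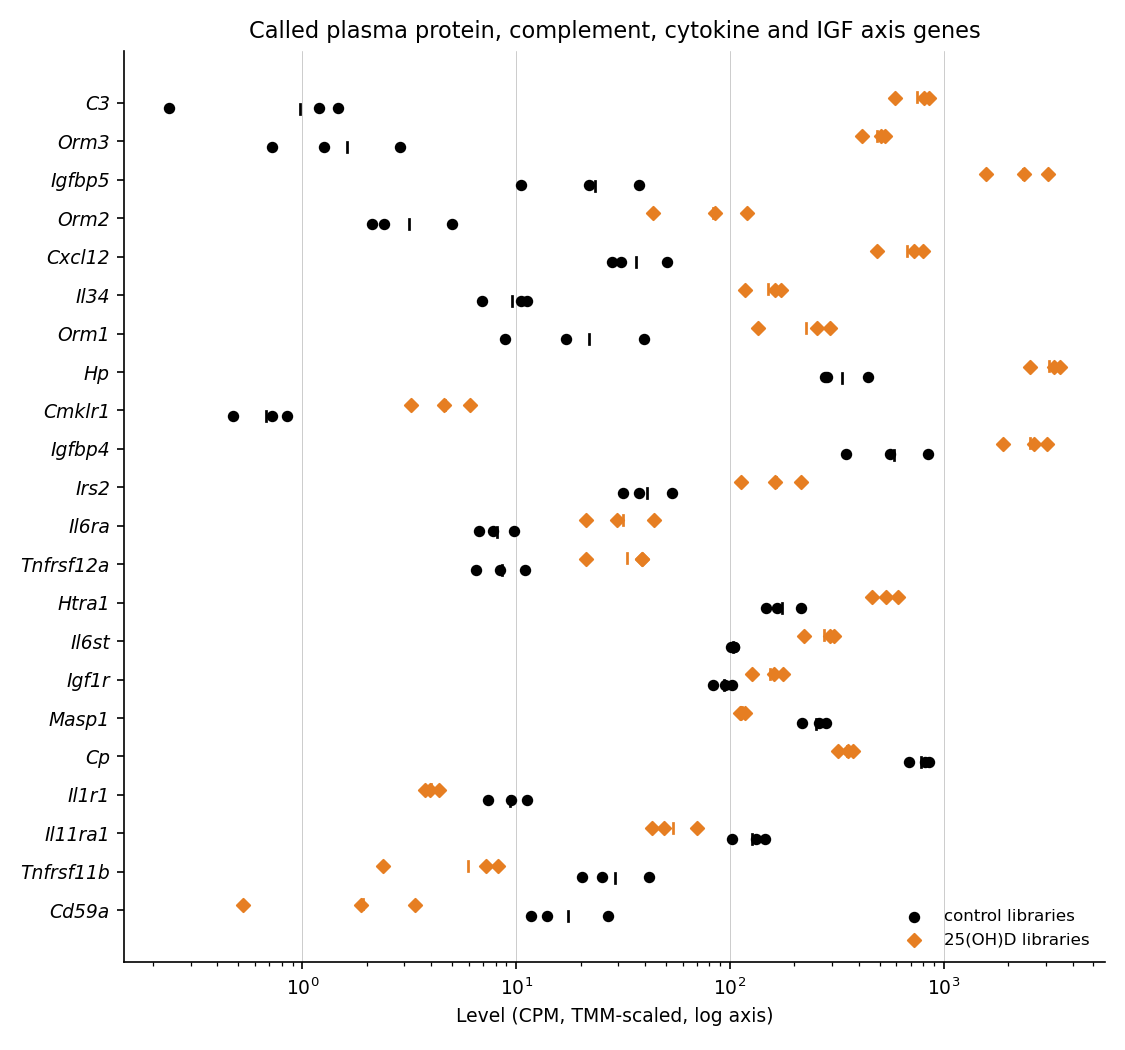
Levels in TMM-scaled CPM, on a log axis, of 22 called genes of the plasma protein, complement, cytokine and insulin-like growth factor lists in each control library (black circles) and each 25(OH)D library (orange diamonds), with short lines for group means. The genes are ordered by fold change, from C3 and Orm3, whose control libraries lie near 1 CPM, down to Cd59a, and 2 called genes with a library at 0, Ccrl2 and Rarres2, are left out of the log axis.

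Of 21 genes of the insulin-like growth factor axis, 5 rose and 0 fell by edgeR (4 at an unadjusted p under 0.05, 0 by DESeq2, 1 with control library 1 left out, 1 with no filter and 2 with the covariate) (23.8%, median log2 0.20). Igfbp4, a binding protein that holds the factors from their receptor, stood at 349, 561 and 839 CPM in control and at 3018, 2651 and 1887 CPM with 25(OH)D (log2 2.11 ± 0.33, adjusted p = 0.00107). Irs2, an adaptor of the insulin and growth factor receptors, stood at 37.6, 31.4 and 53.8 and at 215, 162 and 112 CPM (log2 1.99 ± 0.30, adjusted p = 0.000926). Htra1, a secreted serine protease, stood at 165, 215 and 147 and at 461, 611 and 535 CPM (log2 1.61 ± 0.18, adjusted p = 8.32e-05). No control library reached a treated library in any of these. The ligand gene Igf1 was at 13.6 ± 5.47 CPM in control and 11.4 ± 2.21 CPM with 25(OH)D and was not called (adjusted p = 0.741).

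Of 45 genes of the BMP and TGF-beta pathway, 5 rose (2 with control library 2 or treated library 1 or 2 left out, 3 with control library 1 left out, 2 with the block, 3 in the 6-library fit and 8 with the covariate) and 7 fell (12 with the covariate) (26.7%, median log2 0.07). Ligands were on both sides. Tgfb3 stood at 7.91, 13.7 and 15.9 CPM in control and at 58.3, 63.4 and 37.8 CPM with 25(OH)D (log2 2.08 ± 0.38, adjusted p = 0.00341), and Bmp4, a ligand that drives osteoblast formation, at 228, 242 and 205 and at 109, 94.0 and 111 CPM (log2 −1.10 ± 0.13, adjusted p = 0.000124). Gdf15, a stress-induced ligand, rose by 1.89 ± 0.28, whereas Bmp8a fell by 1.41 ± 0.14 and Inhba, the activin A subunit, by 2.10 ± 0.32. Chrdl1, a secreted BMP antagonist, fell from 209, 200.01 and 199 to 40.9, 31.1 and 30.1 CPM (log2 −2.57 ± 0.26, adjusted p = 4.04e-05), and Smurf2, a ubiquitin ligase of receptors and Smads, by 1.32 ± 0.16. Groups did not overlap for any of the genes named.

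Wnt pathway genes had 43 members tested, of which 8 rose and 3 fell (1 with treated library 1 left out and 10 with the covariate) (25.6%, median log2 −0.24). Wnt10a, a ligand, stood at 18.2, 34.4 and 46.6 CPM in control and at 263, 199 and 119 CPM with 25(OH)D (log2 2.55 ± 0.42, adjusted p = 0.00177). Tcf7l2, a nuclear effector with beta-catenin, stood at 43.6, 43.6 and 65.4 and at 249, 235 and 158 CPM (log2 2.07 ± 0.24, adjusted p = 0.000129). Tcf7l1, a relative known mainly as a repressor, stood at 136, 147 and 242 and at 791, 724 and 461 CPM (log2 1.91 ± 0.28, adjusted p = 0.000670). All 3 were higher in every treated library. Of the R-spondins, which strengthen Wnt signals, Rspo3 rose by 3.25 ± 0.48 and Rspo2 fell by 2.99 ± 0.60. Notum, which removes the lipid of Wnt proteins, rose by 4.00 ± 1.03, a call lost without the filter on low counts, with a replicate block or with control library 1, 2 or 3 or treated library 1 or 2 left out (adjusted p from 0.0509 to 0.213).

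Of 38 FGF, ERK feedback and immediate-early genes, 6 rose (12 with the covariate) and 0 fell by edgeR (3 at an unadjusted p under 0.05, 1 by DESeq2, 1 with treated library 3 left out and 3 with the covariate) (15.8%, median log2 0.03). Phlda1, an early response gene, stood at 5.52, 9.91 and 15.9 CPM in control and at 200.3, 159 and 102 CPM with 25(OH)D (log2 3.88 ± 0.43, adjusted p = 8.12e-05), with no overlap. The ERK phosphatase gene Dusp5 rose by 1.64 ± 0.19 and the early transcription factor genes Egr3 and Egr1 by 1.06 ± 0.19 and 0.81 ± 0.15. Of 16 Notch and Hedgehog genes, 4 rose and 1 fell (31.2%, median log2 0.08). Boc, Cdon and Gas1, the 3 Hedgehog co-receptors of the list, rose by 1.98 ± 0.19, 1.31 ± 0.18 and 1.03 ± 0.18. Boc stood at 39.3, 47.0 and 54.0 and at 183, 209.7 and 163 CPM, and the groups of all 3 were apart. Lfng, a glycosyltransferase that tunes Notch, fell by 2.09 ± 0.32.

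Of 27 genes of vascular and platelet-derived factors, endothelin and apelin, 4 rose (7 with control library 3 left out and 8 with the covariate) and 3 fell (5 with no filter or by DESeq2 and 7 with the covariate) (25.9%, median log2 −0.39). Apln, the apelin peptide gene, stood at 18.2, 22.3 and 30.7 CPM in control and at 0.535, 0.964 and 0.264 CPM with 25(OH)D (log2 −5.25 ± 0.53, adjusted p = 4.27e-05). Flt1, a receptor of vascular endothelial growth factor, stood at 25.4, 34.6 and 51.4 and at 136, 127 and 90.9 CPM (log2 1.67 ± 0.28, adjusted p = 0.00180). Apelin was nearly absent from the treated libraries, and Flt1 was higher in each of them. The co-receptor Nrp1 rose by 1.50 ± 0.24 and the endothelin receptor Ednra by 1.87 ± 0.33. Vegfa, the growth factor itself, rose by 3.04 ± 0.57, a call lost without the filter on low counts (adjusted p = 0.0599). Ramp1, a partner of the calcitonin receptor family, fell by 2.24 ± 0.28 and Pdgfc by 1.39 ± 0.23.

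Of 44 guidance genes of the semaphorin, ephrin and related families, 5 rose (3 with treated library 2 left out and 8 with the covariate) and 7 fell (12 with the covariate) (27.3%, median log2 −0.50). Ephb3, a receptor of ephrin B ligands, stood at 574, 400.4 and 493 CPM in control and at 115, 100.04 and 119 CPM with 25(OH)D (log2 −2.14 ± 0.19, adjusted p = 1.62e-05), while its relative Epha4 stood at 10.6, 10.96 and 17.8 and at 64.2, 77.9 and 51.0 CPM (log2 2.29 ± 0.28, adjusted p = 0.000180). These receptors moved in opposite directions without overlap. The Slit receptor Robo2 fell by 2.23 ± 0.37 and the netrin receptor Unc5c by 2.79 ± 0.46, and the ephrin gene Efnb2 rose by 1.65 ± 0.33. Of 33 integrin, cadherin and connexin genes, 1 rose (2 with control library 1 left out, 3 with treated library 3 left out, 2 with no filter and 5 with the covariate) and 5 fell (3 in the 6-library fit) (18.2%, median log2 −0.40). Itga1, the alpha chain of a collagen receptor, stood at 59.0, 67.0 and 72.3 and at 430.0, 500.5 and 422 CPM (log2 2.77 ± 0.15, adjusted p = 2.30e-07). Itgav, which binds matrix proteins such as osteopontin, stood at 92.1, 116 and 74.5 and at 41.2, 42.7 and 49.4 CPM (log2 −1.09 ± 0.17, adjusted p = 0.00108). Itga1 was higher and Itgav lower in all treated libraries.

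Of 19 annexin and S100 genes, whose proteins bind calcium, 1 rose (0 with control library 1 or 2 or treated library 1 or 2 left out, 0 with no filter, with the block or in the 6-library fit and 2 with the covariate) and 6 fell (36.8%, median log2 −0.27). Anxa2, an annexin found in matrix vesicles, stood at 642, 836 and 549 CPM in control and at 142, 192 and 198 CPM with 25(OH)D (log2 −1.93 ± 0.19, adjusted p = 2.85e-05). Anxa6, another matrix vesicle annexin, stood at 809.5, 948 and 672 and at 373, 418 and 501 CPM (log2 −0.91 ± 0.15, adjusted p = 0.00198), and both were lower in every treated library. S100b fell by 1.32 ± 0.20, and S100a13 was the member that rose, by 1.78 ± 0.50 with overlapping groups, a call lost without the filter on low counts, with a replicate block, in a fit of the 6 libraries alone or with control library 1 or 2 or treated library 1 or 2 left out (adjusted p from 0.112 to 0.281). Of 46 genes of calcium channels, pumps and exchangers, 4 rose (2 with control library 1 or 2 or treated library 1 left out) and 6 fell (3 in the 6-library fit) (21.7%, median log2 −0.10). Besides Itpr2 the calcium channel subunit Cacna2d1 rose, by 1.42 ± 0.16. Of the members that carry calcium out of the cell 3 fell, with the pump Atp2b4 lower by a log2 of 1.75 ± 0.17 and the exchangers Slc24a3 and Slc8a3 by 2.00 ± 0.20 and 1.96 ± 0.28. Atp2b4 stood at 129, 138 and 158 and at 38.5, 51.1 and 36.4 CPM. Atp2b1, a related pump, was at 160.2 ± 15.95 and 162 ± 26.0 CPM and was not called.

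Of 64 actin and contractile genes, 11 rose (5 with treated library 2 left out, 6 with control library 2 left out, 7 with control library 1 left out, 5 in the 6-library fit and 20 with the covariate) and 6 fell (3 in the 6-library fit and 11 with the covariate) (26.6%, median log2 0.10). Dstn, the actin-severing protein destrin, stood at 179, 245 and 179 CPM in control and at 769.7, 1179 and 1145 CPM with 25(OH)D (log2 2.36 ± 0.19, adjusted p = 5.67e-06). Tpm1, a tropomyosin, which stabilizes filaments, stood at 728, 820.3 and 676 and at 273, 269 and 283 CPM (log2 −1.43 ± 0.12, adjusted p = 9.03e-06). Destrin was higher and tropomyosin lower in each treated library. The actin-binding genes Synpo and Cald1 rose by 1.82 ± 0.15 and 0.97 ± 0.13, and Cnn3, a calponin, fell by 0.84 ± 0.14.

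Of 35 nuclear receptors and coregulators, 4 rose (2 with control library 1 left out, 2 in the 6-library fit, 7 with no filter and 8 with the covariate) and 3 fell (1 in the 6-library fit) (20%, median log2 0.11). Vdr, described above, was 1 of those that rose. Rxra, the partner of the vitamin D receptor, was at 85.0 ± 5.32 and 92.4 ± 10.2 CPM and was not called (adjusted p = 0.712). The coactivator Ncoa7 fell by 0.86 ± 0.15. Of 24 glucocorticoid enzymes and targets, 5 rose (10 with the covariate) and 0 fell by edgeR (4 at an unadjusted p under 0.05, 1 by DESeq2, 1 with control library 1 left out, 1 with no filter or with a CPM filter and 6 with the covariate) (20.8%, median log2 0.21), in cells that all had dexamethasone. Hsd11b2, which inactivates glucocorticoids, had 0 counts in control and 46, 54 and 22 with 25(OH)D, at least 45.7-fold higher with the control group set to 3 counts in all (adjusted p = 0.000463). Tgm2, a transglutaminase that crosslinks matrix proteins, stood at 3.84, 5.27 and 4.52 and at 226, 237 and 172 CPM (log2 5.53 ± 0.23, adjusted p = 3.60e-08), and Errfi1, an inhibitor of the epidermal growth factor receptor, rose by 2.13 ± 0.32. The glucocorticoid-induced genes Fkbp5 and Tsc22d3 were not called, with log2 differences of −0.11 ± 0.70 and −0.99 ± 0.40. In the Kruppel-like factors 1 rose (0 with control library 2 or treated library 2 left out, 2 with treated library 3 left out, 0 in the 6-library fit, 2 by DESeq2 and 3 with the covariate) and 1 fell (2 with the covariate) of 13 (15.4%, median log2 −0.16), and the gene that fell was Klf4, from 642, 508 and 447 to 76.0, 66.3 and 82.1 CPM (log2 −2.83 ± 0.18, adjusted p = 7.17e-07).

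Of 29 C/EBP factors and adipocyte genes, 4 rose (7 with the covariate) and 2 fell (0 with control library 3 or treated library 2 or 3 left out, 1 with control library 1 or 2 or treated library 1 left out, 0 in the 6-library fit and 1 with the block) (20.7%, median log2 0.32). Besides Dgat1 and Cebpb, Lpl, the lipoprotein lipase, rose from 0, 1 and 0 counts in control to 82, 56 and 26 counts, a ratio of 184, with 95% counting limits of 32.6 and 7323 (adjusted p = 0.000381). Plin3, a lipid droplet coat protein, rose by 0.87 ± 0.15. Fabp4, a fatty acid carrier of adipocytes, was at 5.28, 4.22 and 8.09 and at 2.14, 0.241 and 0.264 CPM, a fall with a call lost in a fit of the 6 libraries alone or with control library 3 or treated library 2 or 3 left out (adjusted p from 0.0615 to 0.105). Cebpa and Cebpd, relatives of Cebpb, had log2 differences of 0.32 ± 0.31 and 0.58 ± 0.45 and were not called. Among the 8 adipocyte markers only Fabp4 was abundant enough for the test, and their summed level was 8.63 to 9.99 CPM in control and 1.58 to 6.15 CPM with 25(OH)D.

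Of 35 cholesterol genes, 7 rose and 6 fell (2 with treated library 2 left out, 2 in the 6-library fit and 13 with the covariate) (37.1%, median log2 −0.29). Dhcr7, which turns the vitamin D precursor 7-dehydrocholesterol into cholesterol, stood at 22.5, 21.3 and 16.2 CPM in control and at 135, 166 and 142 CPM with 25(OH)D (log2 2.88 ± 0.18, adjusted p = 6.31e-07). Insig2, which holds the sterol sensor in the endoplasmic reticulum, stood at 188, 173 and 216 and at 548, 520.0 and 461 CPM (log2 1.41 ± 0.13, adjusted p = 2.44e-05). Both were higher in all treated libraries than in any control library. Hsd17b7 and Fdft1 of the synthesis pathway rose by 1.86 ± 0.30 and 1.29 ± 0.28, and Acat2, at its first step, fell by 1.04 ± 0.21. The list members Mvd, Cyp51 and Srebf2 were called lower too, and Pmvk higher. In the 6-library fit their log2 changes were −1.56, −0.89, −0.68 and 0.80, and each call was lost there (edgeR adjusted p from 0.0520 to 0.139).

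Lists of energy metabolism had shares called nearer to the 8.68% of all genes or below it. In fatty acid synthesis and oxidation 3 rose (5 with treated library 3 left out and 8 with the covariate) and 2 fell (0 with treated library 1 left out, 1 with control library 2 left out, 0 in the 6-library fit, 5 with no filter and 8 with the covariate) of 43 (11.6%, median log2 −0.08). Scd1, a fatty acid desaturase, rose by 1.94 ± 0.14 and Cpt1a, which brings fatty acids into mitochondria, by 1.12 ± 0.18. In glycolysis and the pentose phosphate pathway 1 rose and 2 fell (1 with control library 3 or treated library 2 left out, 1 in the 6-library fit and 6 with the covariate) of 36 (8.33%, median log2 −0.34). Pgd, a dehydrogenase of the pentose phosphate pathway, stood at 97.1, 78.0 and 74.0 CPM in control and at 512, 552 and 419 CPM with 25(OH)D (log2 2.57 ± 0.18, adjusted p = 1.73e-06), and Ldha, lactate dehydrogenase, fell by 1.16 ± 0.13. Of 88 respiratory chain and ATP synthase genes, 1 rose (2 with control library 3 or treated library 3 left out, 0 in the 6-library fit, 2 by DESeq2 or without ribosomal RNA entries, 3 with no filter and 9 with the covariate) and 1 fell (0 with control library 1 or 2 or treated library 1, 2 or 3 left out, 0 with no filter, with the block, in the 6-library fit or without ribosomal RNA entries, 2 by DESeq2 and 3 with the covariate) (2.27%, median log2 0.20).

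In the prostanoid pathway 1 rose (2 with control library 3 or treated library 3 left out and 3 with the covariate) and 2 fell (1 with control library 1 or 3 or treated library 2 left out and 1 with the block or in the 6-library fit) of 23 (13.04%, median log2 −0.36). Ptges, a prostaglandin E synthase, stood at 5.52, 6.11 and 12.8 CPM in control and at 201, 128 and 52.8 CPM with 25(OH)D (log2 3.96 ± 0.63, adjusted p = 0.00140), and Ptgr1, which inactivates leukotrienes and prostaglandins, fell by 1.81 ± 0.26. Of 60 oxidative stress and xenobiotic enzymes, 6 rose (3 in the 6-library fit and 14 with the covariate) and 4 fell (2 with control library 2 or treated library 1 left out and 9 with the covariate) (16.7%, median log2 0.02). Inmt, an indolethylamine N-methyltransferase, had 0 counts in each control library and 3761, 4201 and 3008 counts with 25(OH)D, at least 4109-fold higher with the control group set to 3 counts in all (adjusted p = 4.50e-08). Fdxr and Por, electron donors in cytochrome P450 reactions, rose by 2.17 ± 0.16 and 1.03 ± 0.14. Gstm2, a glutathione transferase, fell by 1.84 ± 0.16, and Aldh1l2, of mitochondrial folate metabolism, fell from 14.6, 10.5 and 14.04 to 0.802, 1.45 and 0.528 CPM (log2 −3.76 ± 0.43, adjusted p = 0.000116).

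Of 44 genes of p53, growth arrest and apoptosis, 5 rose (8 with control library 3 left out and 11 with the covariate) and 1 fell (2 with control library 2 left out and 3 with the covariate) (13.6%, median log2 0.14). The 3 Gadd45 genes, which respond to growth arrest and DNA damage, did not move alike. Gadd45a stood at 7.19, 6.32 and 15.5 CPM in control and at 682, 495 and 262 CPM with 25(OH)D (log2 5.63 ± 0.53, adjusted p = 2.53e-05). Gadd45g stood at 70.7, 71.4 and 57.3 and at 9.36, 13.98 and 8.98 CPM (log2 −2.62 ± 0.20, adjusted p = 4.91e-06). Gadd45a was higher and Gadd45g lower in each treated library, and Gadd45b rose by 1.51 ± 0.29. Sesn1, a stress-induced regulator of cell growth, stood at 76.0, 108 and 85.2 and at 757, 950.3 and 612 CPM (log2 3.10 ± 0.25, adjusted p = 7.52e-06), and Bcl2l11, a death-promoting member of the BCL2 family, rose by 1.43 ± 0.27. Cdkn1a and Mdm2, members of the same list, had log2 differences of −0.15 ± 0.19 and 0.23 ± 0.35 and were not called. Of 64 DNA replication and mitosis genes, 0 rose by edgeR (0 at an unadjusted p under 0.05, 0 by DESeq2) and 8 fell (3 with control library 1 or 2 or treated library 1 or 2 left out, 4 with the block or in the 6-library fit and 20 with the covariate) (12.5%, median log2 −0.39). Mcm5, of the replicative helicase, fell by 1.14 ± 0.19, Birc5, of the mitotic passenger complex, by 1.22 ± 0.23 and the cyclin gene Ccnd2 by 0.73 ± 0.13.

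In the unfolded protein and integrated stress response 3 rose (5 with treated library 3 left out, 5 with RLE scaling or with no filter, 6 with a CPM filter, by DESeq2 or without ribosomal RNA entries and 8 with the covariate) and 4 fell (8 with the covariate) of 41 (17.1%, median log2 −0.18). The 3 named here that fell act in serine, proline and mitochondrial folate metabolism. Psat1, of serine synthesis, stood at 71.0, 76.9 and 67.3 CPM in control and at 24.3, 18.1 and 19.5 CPM with 25(OH)D (log2 −1.80 ± 0.18, adjusted p = 4.81e-05), Pycr1, of proline synthesis, fell by 2.61 ± 0.30 and Mthfd2, of the folate cycle, by 1.49 ± 0.17. The endoplasmic reticulum chaperone gene Hspa5 was at 957 ± 29.3 and 804 ± 25.2 CPM and was not called. Of 29 heat shock and chaperone genes, 4 rose (2 with control library 2 or treated library 1 left out and 2 in the 6-library fit) and 3 fell (1 with control library 1 or 3 or treated library 1 or 2 left out and 1 with no filter, with the block or in the 6-library fit) (24.1%, median log2 0.04). Hspb7, a small heat shock protein of muscle, stood at 5.99, 10.7 and 7.61 and at 70.9, 109.9 and 121 CPM (log2 3.62 ± 0.27, adjusted p = 3.36e-06). The treated libraries of Hspb7 were all above control and those of Psat1 all below.

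Of 48 lysosome genes, 2 rose (1 with control library 1 or 2 or treated library 1 or 2 left out, 4 with treated library 3 left out, 5 with control library 3 left out, 1 with the block or in the 6-library fit, 4 with no filter and 10 with the covariate) and 2 fell (7 with the covariate) (8.33%, median log2 0.11). Beside Ctsb, which rose, the heparan sulfate degrading enzymes Ids and Sgsh fell by 1.17 ± 0.17 and 1.66 ± 0.25. Of 17 circadian clock genes, 2 rose (1 with control library 1, 2 or 3 or treated library 1 or 2 left out and 1 with no filter, with the block or in the 6-library fit) and 2 fell (1 with control library 1 or 3 or treated library 1, 2 or 3 left out, 0 in the 6-library fit and 1 with no filter or with the block) (23.5%, median log2 0.06), and Csnk1e, a kinase of the clock proteins, rose by 0.82 ± 0.16. Among 200 solute carriers 13 rose (20 with control library 3 left out and 28 with the covariate) and 12 fell (29 with the covariate) (12.5%, median log2 −0.03). Slc41a3, of a family of magnesium carriers, stood at 3.84, 4.22 and 10.7 CPM in control and at 270.1, 180.3 and 74.0 CPM with 25(OH)D (log2 4.81 ± 0.71, adjusted p = 0.000840). Slc6a6, the taurine carrier, stood at 138, 134 and 155 and at 516, 433 and 336 CPM (log2 1.59 ± 0.19, adjusted p = 0.000157). Slc44a1, a choline carrier, stood at 486, 486 and 537 and at 169.8, 158 and 157 CPM (log2 −1.64 ± 0.12, adjusted p = 3.72e-06). The first pair was higher and Slc44a1 lower in each treated library.

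Among 84 cytosolic ribosomal protein genes 0 rose by edgeR (0 at an unadjusted p under 0.05, 0 by DESeq2, 9 with the covariate) and 0 fell by edgeR (2 at an unadjusted p under 0.05, 0 by DESeq2, 1 with control library 2 left out and 1 with the covariate), with a median log2 of 0.30. In the proteasome list 0 rose by edgeR (2 at an unadjusted p under 0.05, 0 by DESeq2, 2 with treated library 3 left out, 2 without ribosomal RNA entries and 5 with the covariate) and 0 fell by edgeR (1 at an unadjusted p under 0.05, 0 by DESeq2, 1 with the covariate) of 43 (median log2 0.05). Over the 43 lists together 1646 different genes were tested, of which 166 rose and 165 fell, and 919 called genes were in no list. The share called within the lists as a whole was thus larger than the 8.68% of all genes. A single list above 8.68% may still lie below the share of the lists together. The lists of coagulation and serpins (19.2%), integrins, cadherins and connexins (18.2%) and solute carriers (12.5%) were among those below it. Those of nuclear receptors (20%), C/EBP factors and adipocyte genes (20.7%) and glucocorticoid enzymes and targets (20.8%) lay close to it. Whether the levels of list members account for their shares was not tested.

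**Figure D5:**
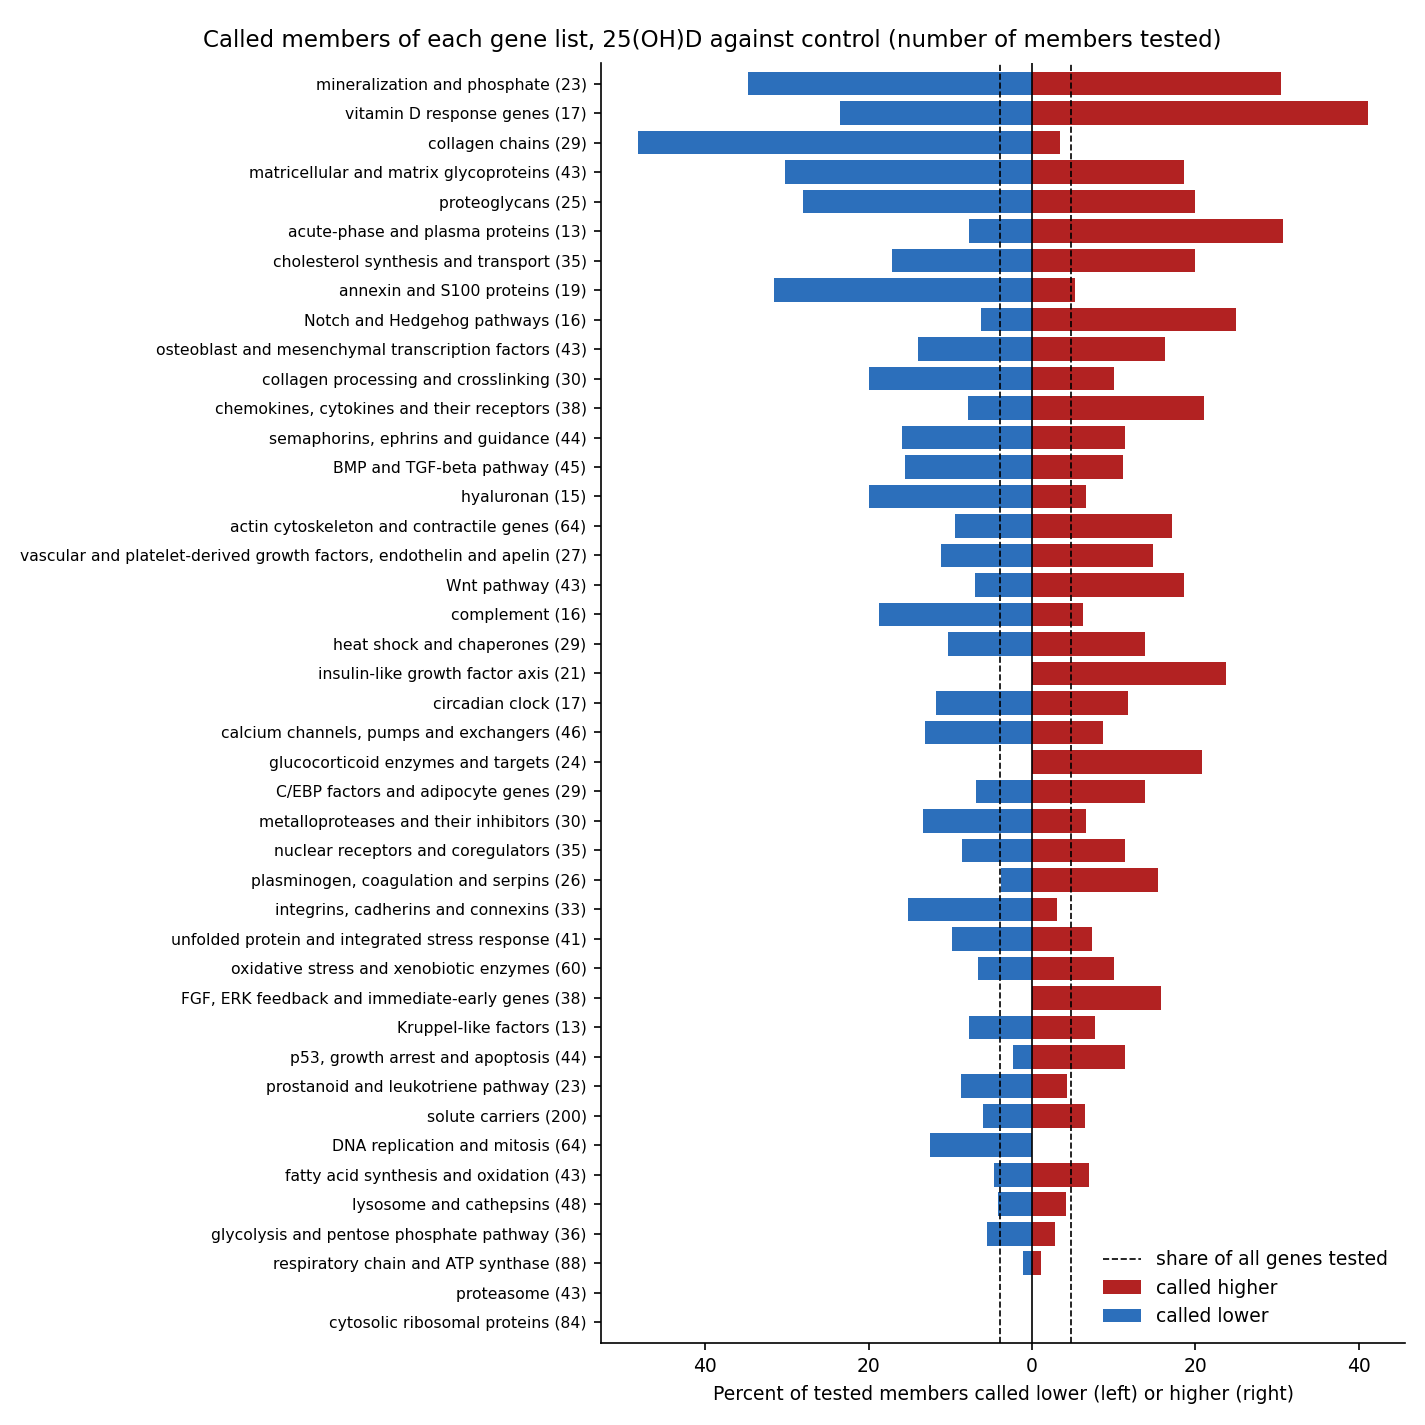
For each of the 43 gene lists, ordered by the share of tested members called, the bar to the right gives the percentage called higher and the bar to the left the percentage called lower, with the number tested in parentheses. Dashed lines mark the shares of all 14394 genes (4.76% higher, 3.93% lower). The mineralization and vitamin D response lists, which share genes such as Spp1 and Bglap, exceed both lines. Other lists, such as proteoglycans and cholesterol, exceed both lines too, and collagen chains exceed the line for genes that fell. The respiratory chain, proteasome and ribosomal protein lists reach neither line. The lists were chosen with earlier results known, so these shares are no test.

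The remaining libraries of the study show how the leading genes stood where 25(OH)D was combined with a further 4 mM BGP or with 100 µM ZK191784, a vitamin D receptor ligand. These are levels set side by side, with no test. Spp1 stood at 55816, 50352 and 60983 CPM with BGP and at 11501, 10539.5 and 11205 CPM with ZK191784, and Vdr at 298, 369 and 303 and at 381, 392 and 373 CPM. With BGP the Spp1 values overlap those of 25(OH)D alone, and with ZK191784 all 3 lie below those of 25(OH)D alone and above control. C3 stood at 433, 390.3 and 451 CPM with BGP and at 2.66, 7.47 and 8.26 CPM with ZK191784, and Inmt at 645, 959 and 715 and at 61.4, 70.6 and 41.5 CPM. Igfbp5 stood at 1325, 2730.0 and 1746 CPM with BGP and at 238, 166 and 148 CPM with ZK191784. Ibsp stood at 98.5, 152 and 114 and at 5764, 4694 and 3504 CPM, Sparc at 13929, 8948 and 9654 and at 35616, 37242 and 39359 CPM, and Col1a1 at 4519.9, 5328 and 4952 and at 17955, 17559.9 and 13122 CPM. With ZK191784 all 3 libraries of C3, Inmt and Igfbp5 lay below, and of Ibsp, Sparc and Col1a1 above, each library of 25(OH)D alone, and between these and control. With BGP, C3 lay below 25(OH)D alone in each library and the other 5 overlapped it.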

How the data were processed

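RNA of MC3T3-E1 cells was extracted with TRIzol and sequenced as QuantSeq 3′ mRNA libraries, per the labels' protocols. The deposited values are raw counts per gene symbol in 12 libraries, 3 in each of 4 groups. STAR 2.7.9a, featureCounts, Subread 2.0.3, DESeq2 1.38.2 and the mouse build mm39 are named in the submitters' processing notes. The annotation release and strand setting are among the details not given in the sources used here. Whether reads of overlapping and antisense genes were told apart is therefore not known.

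The table had 56691 genes, 20212 of them with 0 counts throughout, and 882 entries with a repeated symbol. Genes were kept by filterByExpr (minimum count 10, minimum total 15), which left 14394 genes with 99.4% of counts. A robust quasi-likelihood model with TMM scaling was fitted in edgeR 4.0.16 (R 4.3.3) to all 12 libraries, with 1 coefficient per group, so the spread is shared over the 4 groups. The common biological coefficient of variation was 0.292. The contrast was 25(OH)D minus control, and genes with an adjusted p (Benjamini-Hochberg over all genes tested) under 0.05 were called. The SE was computed as the size of the log2 fold change over the square root of F. Where a group had 0 counts the fold was taken against 3 counts over that group. With 1 to 3 counts it is a ratio with 95% exact binomial limits, which cover counting error only.

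The members and the 43 gene lists were chosen with earlier results of these data known. The text names core genes, the 15 largest called gains and losses in CPM, the 20 largest called rises and falls in log2 fold change (average log2 CPM of at least 3, predicted genes and pseudogenes left out), and up to 4 called members of each list in each direction by smallest p. Gains, losses, rises and falls had to have groups that did not overlap. It also names genes with 0 counts in 1 group and at least 10 in each library of the other, and list members as values. Results of some genes that this rule names are not reported here. RefSeq promoter windows (GRCm38.p6) matched 9522 of the 14394 genes by symbol.

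Replicates of a group differed by more than sampling noise. Alternatives were RLE scaling, DESeq2 1.42.0, 2 other filters (none, or a CPM of 2 in 3 libraries), the replicate number as a block, the 6 libraries alone, the log2 ratio of ribosomal protein counts to pseudogene and predicted gene counts as a covariate, and each library left out in turn. Leaving out ribosomal RNA entries, 4.59 to 9.95% of counts in the 6 libraries, and the promoter motifs were chosen after seeing the data. Plots were made with matplotlib 3.10.9 (Python 3.11.15).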

Additional observations from a re-analysis of the deposited data

How the results depend on the processing

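The count of called genes depended on the libraries in the model and on the use of a covariate. It was 763 in a fit of the 6 libraries alone (427 higher, 336 lower) and 2847 with the log2 ratio of ribosomal protein to pseudogene and predicted gene counts as a covariate (1452 higher, 1395 lower), against 1250 (685 and 565) as reported. The cause was not tested. Leaving out 1 library at a time gave 813 to 1266 genes, with 462 to 774 higher and 351 to 492 lower, and the lowest total came without 25(OH)D library 2. With a replicate block 953 genes were called (528 higher, 425 lower), and 75.8% of the reported calls were among them. Same-numbered control and 25(OH)D libraries had deviations from their group means that correlated at −0.54, −0.07 and −0.72. No library correlated best with its own number. These values cannot decide whether same-numbered libraries share a culture, since libraries of 1 group also differed in the ribosomal protein ratio. The labels do not say that they do, so the numbers were not taken to pair the samples. RLE scaling (1276), no filter on low counts (1315), a CPM filter (1277), DESeq2 (1466) and leaving out ribosomal RNA entries (1330) stayed within 1.5 times. None of these 14 alternatives called a reported gene in the opposite direction. Of 362 called genes that the naming rule or a list holds, 235 were called in every alternative that tested them. The other 127 lost the call in at least 1, most often without 25(OH)D library 2 (90) and in the fit of 6 libraries (89). Depth was 3587039 to 4762357 counts in the 6 libraries, and genes with a few counts, such as Fgf23, fell under the filter.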

Other observations

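Several of the steepest changes were in genes outside the lists. The naming rule took only rises and falls whose groups did not overlap. Gprc5a, an orphan receptor induced by retinoic acid, stood at 2.88, 6.11 and 3.33 CPM in control and at 285, 315 and 336 CPM with 25(OH)D (log2 6.23 ± 0.27, adjusted p = 4.50e-08). Galnt15, which starts O-linked glycan chains, stood at 1.44, 0.843 and 2.38 and at 149.8, 147 and 90.6 CPM (log2 6.37 ± 0.40, adjusted p = 8.19e-07). Mustn1, a nuclear protein of the musculoskeletal system, stood at 10.1, 12.2 and 5.23 and at 208, 245 and 194 CPM (log2 4.55 ± 0.27, adjusted p = 6.06e-07). All 3 were higher in every treated library. Trarg1, a regulator of glucose transporter traffic, rose by 5.58 ± 0.47, Lrtm2, a leucine-rich membrane protein, by 7.05 ± 0.61, Relt, of the tumour necrosis factor receptor family, by 4.55 ± 0.34 and Pxdn, the matrix peroxidase peroxidasin, by 4.32 ± 0.77. Among the falls, Car3, a carbonic anhydrase, stood at 186, 207 and 261 and at 21.4, 16.6 and 17.4 CPM (log2 −3.56 ± 0.19, adjusted p = 1.98e-07), and the groups were apart. The serine protease gene Prss35 fell by 5.03 ± 0.62, Gper1, a membrane oestrogen receptor, by 3.31 ± 0.28 and the kinesin Kif26b by 3.26 ± 0.37.

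Some genes with very few counts in 1 group, chosen after their values were seen, were called as well. Serpina12, the serpin vaspin, had 1, 0 and 0 counts in control and 29, 33 and 35 with 25(OH)D, a ratio of 109, with 95% counting limits of 19.1 and 4349. Ano1, a chloride channel, had 1, 2 and 0 and 31, 40 and 13 counts (ratio 31.5, 95% counting limits 10.4 and 156). Bhmt, which remethylates homocysteine, had 2, 1 and 0 and 38, 23 and 9 counts, and Hgd, of tyrosine breakdown, had 0, 2 and 0 and 23, 26 and 6. In the other direction Myl10, a myosin light chain, had 46, 71 and 35 counts in control and 2, 0 and 1 with 25(OH)D (ratio 45.1, 95% counting limits 15.1 and 221), and Amhr2, the receptor of anti-Müllerian hormone, had 12, 23 and 28 and 2, 0 and 1 (ratio 18.7, 95% counting limits 6.11 and 93.0). These limits are exact binomial ones and cover counting error only. Adjusted p (edgeR) was 0.000574, 0.00272, 0.00389, 0.00821, 0.000894 and 0.00510 in the order given.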
